A study of Homo sapiens with 12 samples.

Results

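Of the 5700 circular RNAs (circRNAs) counted in AC16 cells or in the exosomes they released, 1053 were listed in at least 2 of the 6 cell libraries and had 0 reads in all 6 exosome libraries. These recurrent circles of cells were chosen by those counts, so their presence in cells and absence from exosomes are given as a description, with no test. AC16 is a human cell line derived from a fusion of ventricular cardiomyocytes and transformed fibroblasts, so all libraries share 1 line. The 12 libraries fell into 4 groups of 3: AC16 cells labelled Con, AC16 cells labelled Ang, and the exosomes of each. What Con and Ang stand for, and any dose or time, is not spelled out in the labels. Nor is it said whether a group's libraries are separate cultures, and p-values here then reflect a spread that may be purely technical.

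A circRNA forms when the spliceosome joins the end of an exon back to the start of the same or an earlier exon, a reaction called back-splicing. The closed ring has no free ends for exonucleases, so circles often outlast the linear messenger RNA of the same gene, which is called the host gene. Most circles of exons are found in the cytoplasm, and some are also found in secreted vesicles such as exosomes.

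A count here is the number of reads across the back-splice junction of one circle in one library. Each nonzero count was at least 2, so a single junction read is listed as 0. Cell libraries held 9202471 to 11212674 gene reads and 6347 to 8010 junction reads, and exosome libraries 535442 to 745311 and 884 to 1382. RNA of cells and exosomes was extracted and made into libraries with different kits, so compartment and kit cannot be told apart. Of 12 fibroblast markers, 12 were in the cell tables, 10 of them above 10 counts per 1000000 gene reads (CPM). Of 18 cardiomyocyte markers, 13 were, 3 of them above 10 CPM: TTN at 75.8 to 88.0 CPM, GJA1 at 52.2 to 63.2 CPM and GATA4 at 24.0 to 31.5 CPM. By contrast, ACTC1 and NKX2-5 were at or below 0.515 CPM. Of 14 markers of endothelial, immune, blood and serum cells, 1 was above 10 CPM.

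The sequences at the back-splice are shown for the most abundant of these circles, because this join is what the counted reads cross and what tells a circle from its host's linear RNA. In each line the last 15 bases of the circle stand in lower case and its first 15 bases, which follow them across the join, in capitals. They run 5′ to 3′ on the strand of the circle and come from GENCODE release 29 transcripts on GRCh38.
DST: attttgcactttcagATGAACGGGACAAAG
DST, second circle: acagatggaaatgagATGAACGGGACAAAG
GUSBP1: gtagggtttcaccagGGCTGGTGAATTACC
MEG8: ctccggatgactaatAATGAAAACCATGTA
LINC00632: gtctgcaatatccagGGTTTCCGATGGCAC
ADAMTS6: agttcttattactagGTTAAAAAATGGCCA
ARHGAP10: agaagctgctgatcgGAAGAAAAAAAGAAG
BACH1: gaaattgagaagctgGTTGATGATAATTAG
The 2 DST lines end in the same 15 capitals, since both circles begin at the same exon start and differ in the exon that closes them.

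The DST circle was the most abundant of the 1053. DST encodes dystonin, a large linker between intermediate filaments, actin and microtubules. The circle lies on the minus strand at chr6:56699653-56735289 and joins exons 3 to 6 of a transcript of 95 exons into a coding ring of 323 bases. It had 40, 51 and 61 reads in the Con cell libraries and 55, 68 and 47 in the Ang cell libraries, 322 in all. No cell library lacked it and the groups overlapped. Among all circles it ranked 6 by cell reads, and the 5 circles above it, 2 of MAN1A2 and 1 each of CDYL, ASAP1 and DEK, had 9 to 131 exosome reads.

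DST itself was well represented in exosomes. Its gene reads numbered 806, 926 and 779 in Con exosomes and 596, 658 and 534 in Ang exosomes, against 6401 to 9272 in cells. On the scale of CPM this was 1187 ± 95.9 (SD, n = 6) in exosomes and 736 ± 124 (SD, n = 6) in cells, a fitted log2 difference of 0.69 (SE 0.109, adjusted p = 0.000372 by edgeR's quasi-likelihood test). The second DST circle, chr6:56692388-56735289, had 9, 14, 8, 19, 13 and 8 reads over Con 1 to 3 and Ang 1 to 3. Another, chr6:56851397-56900621, had 23 reads in 4 libraries. The 2 DST circles listed in exosomes had 8 and 4 reads, each in 1 library, joined exons 35 to 41 and 62 to 78, and were not listed in cells. No DST circle was listed in both compartments.

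**Figure D1:**
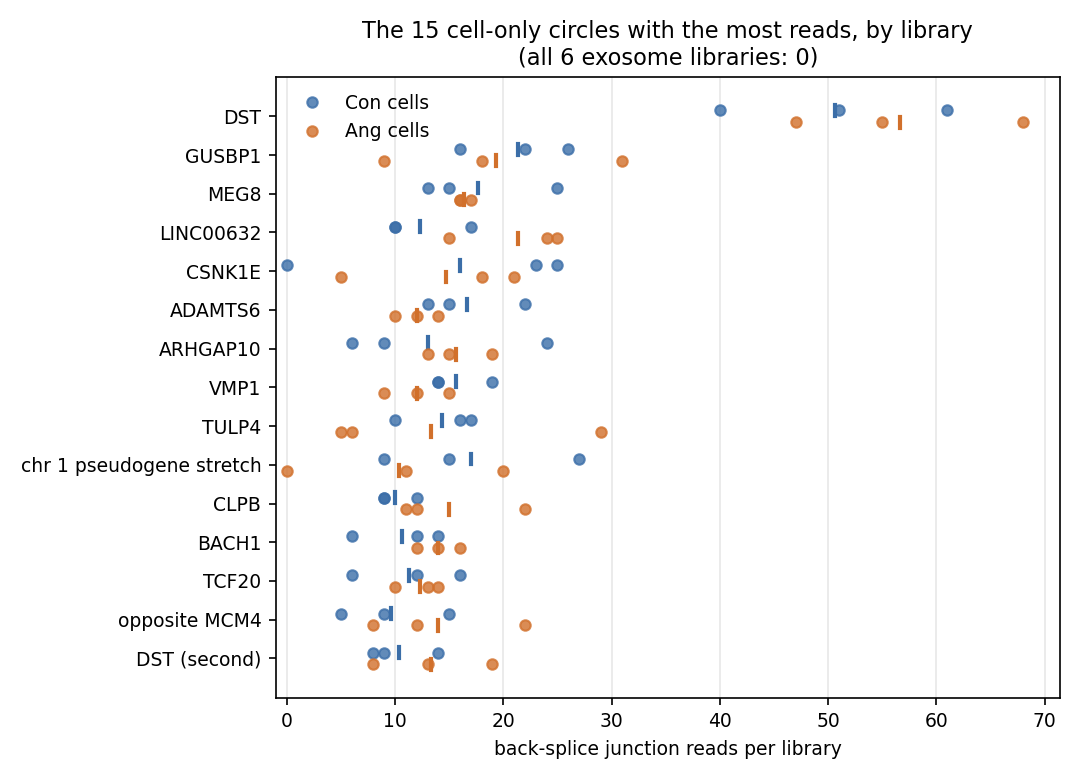
Back-splice junction reads (horizontal axis) of the 15 most abundant circles found in at least 2 cell libraries and in no exosome library; each point is a library, blue for Con cells and orange for Ang cells, and each bar is the mean of 3. DST stands apart at 40 to 68 reads, while CSNK1E and the circle of the chromosome 1 pseudogene stretch each have a library at 0.

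The LINC00632 circle is the RNA known as CDR1as or ciRS-7, named for its many sites for the microRNA miR-7 and for lying opposite the gene CDR1. It lies at chrX:140783175-140784659 on the plus strand, inside a single long exon. It had 10, 10 and 17 reads in Con cells and 24, 25 and 15 in Ang cells. The Ang libraries were the higher ones, except that Ang 3 fell below Con 3. Searched for GTCTTCC, the match to bases 2 to 8 of miR-7, its 1485 bases held 67 matches, or 45.1 per kilobase, and the other strand held 0. Of the 757 circles of the set with a spliced exon sequence, 38 (5.02%) held at least 1 match and none more than 2. Over all 3174 circles with such a sequence the share was 4.98%. The mature miR-7 (from RefSeq) is printed with its seed in capitals, followed by the 300 bases of the circle with the most matches, each match in capitals, chrX:140784164-140784463.
hsa-miR-7-5p: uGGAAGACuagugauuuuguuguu
LINC00632 circle: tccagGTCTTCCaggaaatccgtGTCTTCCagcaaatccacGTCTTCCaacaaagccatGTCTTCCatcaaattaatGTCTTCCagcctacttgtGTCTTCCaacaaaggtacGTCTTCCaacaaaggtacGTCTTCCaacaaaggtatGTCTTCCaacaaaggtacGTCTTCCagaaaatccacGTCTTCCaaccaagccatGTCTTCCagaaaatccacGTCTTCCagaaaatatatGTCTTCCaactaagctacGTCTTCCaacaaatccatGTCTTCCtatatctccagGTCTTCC
These 300 bases hold 17 of the matches, spaced by short stretches of sequence that recur with few changes. No other circle of LINC00632 was listed in any library.

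The 2 other circles with more than 100 reads also came from genes that do not code for protein. The GUSBP1 circle, chr5:21491321-21497196, of a transcribed pseudogene of the beta-glucuronidase gene GUSB, had 16, 22 and 26 reads in Con cells and 9, 18 and 31 in Ang cells. Its value is uncertain, because reads of near-identical copies may have been shared with it. MEG8 is a long non-coding RNA of the imprinted DLK1-DIO3 region, whose non-coding RNAs are expressed from the maternal chromosome. Its leading circle, chr14:100937403-100988790, had 13, 15 and 25 reads in Con cells and 17, 16 and 16 in Ang cells.

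MEG8 gave 15 of the 1053 circles, with 372 reads in all, from 7 starts and 6 ends used in several combinations. The start at base 100937403 of chromosome 14 was joined to ends at 100988790 (102 reads), 100969545 (53 reads), 100949596 (31 reads) and 100998111 (24 reads). Each of these had 0 exosome reads. Only 1 of the 15 had both ends at exon ends of a single annotated transcript. Most of the rest had both ends at exon ends of different MEG8 transcripts, and a few had 1 such end. Of the MEG8 circles outside the 15, 2 were listed in both compartments, with 9 exosome reads, and 1 in exosomes only, with 9 reads in 1 library.

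Several protein-coding hosts followed. ADAMTS6, a secreted metalloprotease, gave a circle of exons 2 to 7 that holds the start codon, chr5:65451475-65473952, with 13, 15 and 22 reads in Con cells and 12, 14 and 10 in Ang cells. ARHGAP10, a GTPase-activating protein, gave a circle of exons 5 to 10, chr4:147857553-147881932, with 6, 9 and 24 reads in Con cells and 19, 13 and 15 in Ang cells. BACH1, a repressor of antioxidant genes, gave a circle of exons 2 to 4, chr21:29321221-29329693, with 6, 14, 12, 14, 16 and 12 reads over Con 1 to 3 and Ang 1 to 3. In all 3 the ranges of the Con and Ang libraries overlapped.

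ADAMTS6 also had a circle that was listed in exosomes. Its leading circle had 86 cell reads and none in exosomes. Another, which uses the same end at base 65451475 but starts at exon 4 instead of exon 2, had 13 cell reads in 2 libraries and 6 exosome reads in 2 libraries. In BACH1 the pair ran the same way: the circle above had 74 cell reads and 0 exosome reads, while another that shares 1 of its ends had 22 and 4.

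Over the whole set, 198 circles (18.8%) shared at least 1 end with a circle listed in exosomes. Each was paired with the one of these that had the most cell reads. The circle absent from exosomes had fewer cell reads than its partner in 104, more in 90 and the same number in 4. The partner was not listed in cells at all in 49 pairs. Median cell reads were 12 for the circles absent from exosomes and 17 for their partners. Of the 198, 17 shared each end with a different exosome circle.

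In 11 circles (1.04%) both ends lay within 10 bases of those of a circle listed in exosomes, and the counts list each as a separate circle. Whether such neighbours are different splice forms or differ only in where a junction was placed was not tested. One of the 11 is a circle of SLC8A1, the cardiac sodium-calcium exchanger, whose large second exon forms a well-known circle. The exosome-listed form, chr2:40428473-40430304, had 149 cell reads and 36 exosome reads. The form absent from exosomes, chr2:40428473-40430301, starts 3 bases further in and had 7, 5 and 6 reads in Con cells and 4, 2 and 10 in Ang cells. Both junctions are shown to make that difference visible, with the first 15 bases after the join in capitals.
SLC8A1 circle absent from exosomes: gaatgatgaaattgtGTTGTGACAGTTGGA
SLC8A1 circle listed in exosomes: gaatgatgaaattgtTAGGTTGTGACAGTT
The capitals differ by the 3 bases TAG at the start of the longer form, and the rest is the same sequence. ANKRD11 (23 reads in 6 libraries) gave a form of the same kind, with a start 3 bases away from that of an exosome-listed circle. The SLC8A1 pair was chosen for display after its values were seen.

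How many reads a circle had in cells went with whether it was listed in exosomes. Of recurrent cell circles with 4 to 9 reads, 515 of 569 (90.5%) had 0 exosome reads. The share was 82.6% at 10 to 19 reads, 59.2% at 20 to 49, 42.6% at 50 to 99 and 8.89% (4 of 45) at 100 or more. The 4 were the leading circles of DST, GUSBP1, MEG8 and LINC00632. The 314 recurrent circles that were listed in exosomes had a median of 25 cell reads, against 10 for the 1053. For all 418 circles listed in both compartments, recurrent in cells or not, exosomes gave 25.2 reads for every 100 reads of the cells. These were chosen for having exosome reads, so that ratio is no yield to expect of other circles. Over all circles, exosome libraries held 6768 junction reads and cell libraries 43450.

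**Figure D2:**
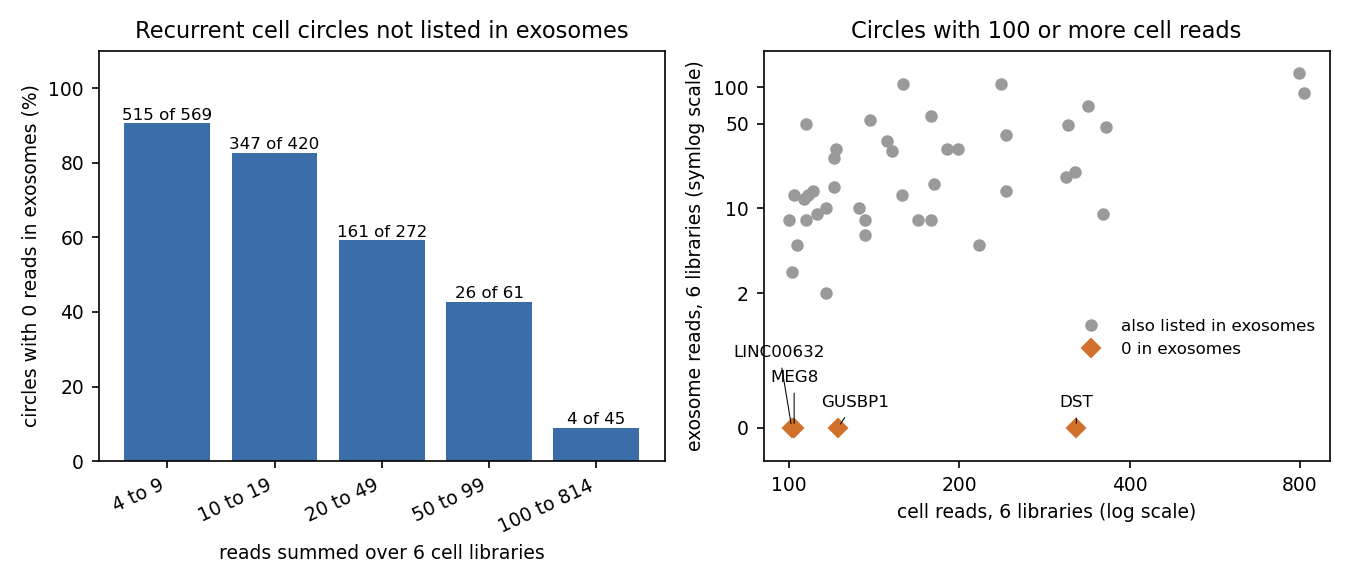
Left, the share of recurrent cell circles with 0 exosome reads (vertical axis, %) by reads summed over the 6 cell libraries, with counts above the bars; the share falls from 90.5% to 8.89%. Right, cell reads (log scale) against exosome reads (symlog scale, 0 at the bottom) of the 45 circles with 100 or more cell reads; orange diamonds are the 4 at 0 in exosomes and grey points are the other 41.

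Even circles that were in exosomes were mostly seen in few exosome libraries: 217 of the 314 (69.1%) were listed in 1 of the 6, and 6 in all 6. A listed 0 can also stand beside high counts. Of 58 circles with at least 10 reads in at least 5 cell libraries, 5 were listed at 0 in the sixth. One was the exosome-listed SLC8A1 circle, with 23 to 44 reads in 5 cell libraries and 0 in Ang 1. Another was a circle of MAP4K4 that belongs to the set, with 10, 14 and 17 reads in Con cells and 0, 14 and 11 in Ang cells. An absence from exosomes is therefore a statement about the listed counts, and no upper limit on the RNA was computed from it.

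The rule set its edge at low counts. At the inner edge, 57 circles had 4 reads in 2 libraries. At the outer edge, 27 recurrent circles missed the set by 2 exosome reads, led by those of RNF168 (116 cell reads), FAM13B (55) and RMDN3 (51). Of the 1053, 555 were in 2 cell libraries, 232 in 3, 133 in 4, 64 in 5 and 69 in all 6. Reads per circle ran from 4 to 322, and 30 circles had at least 50.

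Together the 1053 held 15047 junction reads, 34.6% of the 43450 in cells. They made up 77.0% of the 1367 circles found in at least 2 cell libraries. Each cell library held 486 to 546 of them. A larger number, 3708 circles, was listed in 1 cell library and in no exosome library, with 12282 reads.

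Most of the circles ran from one annotated exon end to another. Both ends fell on exon ends of 1 annotated transcript in 757 of 1053 (71.9%). The share was 91.4% in the 314 recurrent circles listed in exosomes, 46.9% in circles of 1 cell library and 58.3% in circles of exosomes only. A further 34 had both ends at exon ends of different transcripts of a gene, 96 had 1 such end, 101 lay inside a gene without one, and 22 joined exon ends of 2 genes. On the strand of the circle, 39 had no gene, of which 36 lay over a gene of the other strand.

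The 757 joined a median of 4 exons into a median of 563 bases (quartiles 386 and 893), against 3 exons and 473 bases in the recurrent circles listed in exosomes. Single-exon circles numbered 56 (7.40%), against 8.01%. A start at exon 2 was found in 252 (33.3%), against 40.4%, and 138 (18.2%) held the start codon, against 22.6%. Coding sequence alone made up 586 (77.4%), against 75.6%. A spliced length divisible by 3 was found in 35.0%, against 34.5%. These properties were not tested between the sets, since the sets also differed in their reads.

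Hosts were found for 1014 circles, 941 of them protein-coding genes. The circles came from 723 hosts, 565 with a single one. Of these hosts 209 (28.9%) had some circle in exosomes and 514 had none. Beside MEG8, the hosts with the most were MALAT1 with 16, a stretch of chromosome 1 with 15, PTK2 with 8, UBAP2 with 7 and FMN2 with 6.

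MALAT1 is an abundant nuclear long non-coding RNA with few introns. None of its 16 circles, 339 reads in all, had both ends at exon ends of 1 transcript, and they used 13 starts and 11 ends, many a few bases apart. Reads came and went between libraries: the circle chr11:65499689-65500063 had 0, 12 and 14 reads in Con cells and 18, 16 and 0 in Ang cells. The circle chr11:65500487-65500650 had 0, 0 and 17 in Con cells and 15, 10 and 17 in Ang cells. An exosome-listed circle whose start lies 7 bases away had 59, 0, 59, 56, 68 and 0 over the same 6 libraries.

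On chromosome 1, 15 circles with 323 reads lay on the minus strand between bases 629163 and 634358, none with both ends at exon ends of 1 transcript. The long pseudogene annotated on that strand, ENSG00000230021, covers them, but 6 pseudogenes of mitochondrial genes, such as MTND2P28 and MTCO1P12, lie there on the plus strand. Copies of mitochondrial sequence in the nuclear genome are nearly identical to their source, so the origin of these reads is uncertain. The leading one, chr1:633567-633793, had 15, 9 and 27 reads in Con cells and 20, 11 and 0 in Ang cells.

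Of the circles with at least 30 reads, 43 of 61 (70.5%) with exon ends in 1 transcript were present in all 6 cell libraries, against 16 of 34 (47.1%) of the rest, a difference that was not tested. Median reads were 39 and 55. CSNK1E, a circadian kinase gene, gave a circle without exon ends: chr22:38291029-38291423 lies inside the gene and had 25, 23 and 0 reads in Con cells and 18, 5 and 21 in Ang cells. A circle joining an exon end of RPS6KB1 back to an exon start of VMP1, chr17:59838295-59893325, was in all 6, with 14, 14, 19, 15, 9 and 12 reads.

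PTK2, focal adhesion kinase, gave 8, all with exon ends in 1 transcript, and FMN2, an actin-nucleating formin, gave 6 of the same kind. UBAP2, a ubiquitin-binding protein known for many circles, gave 7. The UBAP2 circles together had 14, 3 and 5 reads in Con cells and 23, 23 and 23 in Ang cells, so that all Ang libraries were higher. PNN, a splicing-related protein named here after its values were seen, showed 6, 0 and 2 against 18, 21 and 10. None of the 6 PNN circles had both ends at exon ends of 1 transcript. Among the 12 hosts with at least 5 circles these 2, UBAP2 and PNN, did not overlap between Con and Ang. Among all 202 hosts with at least 20 reads in the set, 13 (6.44%) did not overlap, 5 with Ang higher and 8 with Ang lower. An exact two-sided permutation test of 3 libraries against 3 cannot give a p below 0.1.

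Hosts were also grouped by function. Small GTPase regulators and kinases gave 57 circles from 28 of 82 genes (891 reads), chromatin and histone-modifying genes 31 from 19 of 66 (542 reads), and RNA-binding and RNA-processing genes 31 from 23 of 73 (472 reads). That list also holds AFF1, of transcription elongation, and EXOC6B, of the exocyst. Centrosome, cilium and kinetochore genes gave 26 from 16 of 58 (408 reads), ubiquitin ligases and deubiquitinases 23 from 16 of 69 (265 reads), and membrane traffic and nuclear transport genes 10 from 8 of 57 (113 reads). Since long, many-exon genes can give more circles, these are counts and no enrichment was tested.

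Some examples, all with exon ends in 1 transcript, follow. DOCK1, an activator of Rac, had 7, 7 and 4 reads in Con cells and 4, 11 and 12 in Ang cells. KDM1A, a histone demethylase, had 6, 5 and 8 against 3, 9 and 13, and CHD2, a chromatin remodeler, 9, 5 and 2 against 8, 8 and 9. CEP128, a protein of the mother centriole, had 10, 4 and 4 against 6, 8 and 9. Of genes that form, export or degrade circles, 3 of 33 gave 5 circles, from TNRC6A, SRSF1 and METTL3, with 53 reads. Of 20 cardiac muscle and ion channel genes, SLC8A1 alone gave 1. Of 21 genes with circles named in heart or muscle studies, 5 gave 8, with 95 reads. Of the cardiomyocyte markers none gave a circle of the set. Of the fibroblast markers COL1A1 was assigned 1, with only 1 end at an exon end.

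Ang and Con cells were compared for each circle with edgeR's quasi-likelihood test. The rule that chose the circles did not use these labels. Of the 1053, 118 had enough reads to be tested, and 935 did not. None of the 118 passed an adjusted p of 0.05, and none of the 265 circles tested did (0.0%). The smallest adjusted p was 0.992 by edgeR and 0.434 by DESeq2, which also called 0. At an unadjusted p under 0.05, edgeR listed 3 of the 118, and 5 of all 265 (1.89%). The ranges of Con and Ang libraries did not overlap in 13 of the 118 (11.0%), and in 10.6% of all 265. The median log2 difference, Ang minus Con, was 0.10 in the 118 and 0.11 over all 265. In simulated counts at this depth the test recovered 23 of 70 circles changed 4-fold (32.9%) and 4 of 68 changed 2-fold (5.88%). Changed circles that fell below the read filter are not in these shares. In the simulation 217 circles were tested, most of them were changed, and all shared the same spread. With so many changes the adjustment of p is more lenient than with few, so these shares do not carry over to the real test. Even in that setting, changes of these sizes were seldom detected.

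**Figure D3:**
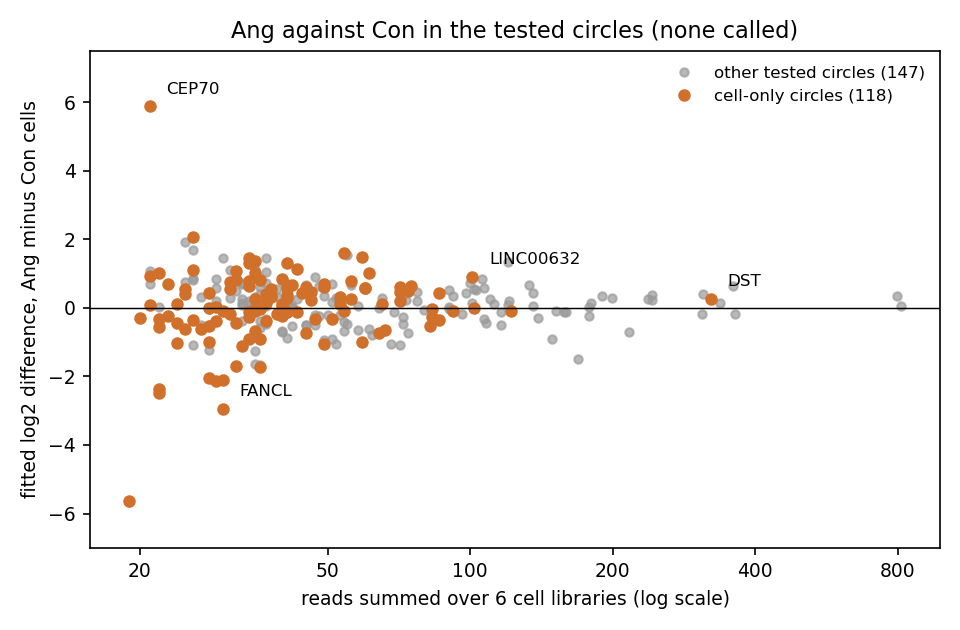
Fitted log2 difference between Ang and Con cells (vertical axis) against reads summed over 6 cell libraries (log scale) for the 265 circles tested, orange for the 118 that were absent from exosomes and grey for the other 147. The spread narrows with reads, and DST lies near 0 while CEP70 and the unlabelled point near -6 each have 3 libraries at 0 in one group.

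The circles with the smallest p in each direction are given as values. CEP70, of the centrosome, gave a circle of exons 3 to 6 with 0, 0 and 0 reads in Con cells and 6, 9 and 6 in Ang cells. Against a floor of 3 reads over the Con group this was 7.09-fold higher (unadjusted p = 0.0235 by edgeR, adjusted p = 0.992). Because a listed 0 can stand beside high counts, such a fold is not a lower bound. The LINC00632 circle followed at a log2 difference of 0.91 (SE 0.408, unadjusted p = 0.0429 by edgeR). CLPB, a mitochondrial disaggregase, was assigned a circle with 9, 12 and 9 reads in Con cells and 11, 12 and 22 in Ang cells. Only 1 end of this circle is an exon end of CLPB. The other, at base 72547846, lies outside the gene, which spans bases 72285495 to 72434680. KIF20B, a mitotic kinesin, had 7, 8 and 6 against 8, 11 and 16 reads. PARD3, of the cell polarity complex, had 2, 7 and 0 against 6, 10 and 9.

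In the other direction, a circle on the strand opposite HSP90AA1, chr14:102084896-102085381, had 5, 5 and 9 reads in Con cells and 0, 0 and 0 in Ang cells. On the same floor this circle was 6.26-fold lower in Ang (unadjusted p = 0.0362 by edgeR). No gene is annotated on its own strand. FANCL, a ubiquitin ligase of the Fanconi anemia pathway, had 8, 7 and 12 reads against 0, 3 and 0. CRIM1, a membrane protein that binds growth factors, had 7, 10 and 11 against 0, 2 and 6. LASP1, an actin-binding protein, had 5, 10 and 26 against 7, 6 and 5, and ITSN2, an endocytic scaffold, 12, 5 and 8 against 5, 0 and 0. The LASP1 circle lies inside its gene without an end at an exon end. The ITSN2 circle spans 168 bases and has only 1 end at an exon end.

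The gene reads of these hosts did not pass either. The log2 difference of CEP70 gene reads, Ang minus Con, was 0.39 (SE 0.499, adjusted p = 0.895 by edgeR), and that of FANCL -0.06 (SE 0.0957, adjusted p = 0.914). That of CLPB was -0.60 (SE 0.413, adjusted p = 0.842 by edgeR), opposite in sign to the circle assigned to it, which reaches outside the gene. Of 690 hosts tested, 0 passed by edgeR, whose smallest adjusted p among them was 0.449, and 0 of all 13331 genes passed (0.0%). At an unadjusted p under 0.05 there were 44 hosts (6.38%), against 6.12% of all genes. DESeq2 called 3 hosts, against 60 of 13331 genes (0.45%). DDX17, an RNA helicase, was lower in Ang, with 9485, 7754 and 10651 gene reads in Con cells and 5256, 5084 and 5883 in Ang cells. SCYL2, of clathrin traffic, had 396, 362 and 501 against 653, 837 and 728. ATAD3B, a mitochondrial protein, had 158, 156 and 215 against 232, 280 and 287. The DDX17 circle had 6, 3 and 10 reads in Con cells and 3, 4 and 6 in Ang cells.

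Summed over the set, junction reads per 1000000 gene reads were 249, 240 and 247 in the Con libraries and 255, 249 and 256 in the Ang libraries. The means were 245 ± 4.82 (SD, n = 3) and 253 ± 4.07 (SD, n = 3), and the ranges were separated by the narrow gap between 248.5 and 248.7 (exact two-sided permutation p = 0.1, the smallest that 3 against 3 can give). With library sizes scaled by the trimmed mean, or with circles of at least 3 cell libraries, the exact permutation p was 0.2. As a share of all junction reads they were 34.4% ± 0.479 (SD, n = 3) in Con and 35.0% ± 2.12 (SD, n = 3) in Ang (exact permutation p = 0.7). Per 1000 gene reads of their hosts they were 1.77 ± 0.0348 (SD, n = 3) and 1.82 ± 0.0459 (SD, n = 3) (exact permutation p = 0.3). By label, of the circles in 2 libraries, 128 were in 2 Con libraries, 119 in 2 Ang libraries and 308 in 1 of each.

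Gene reads of the hosts, which the rule did not use, were compared between compartments. They come from the same libraries as the junction reads that chose the circles and that sort the hosts below. The shares are therefore not independent of that choice and are given as a description. Of 687 hosts tested, 110 (16.0%) were higher in exosomes and 182 (26.5%) lower, at an adjusted p of 0.05 by edgeR. Over all 11811 genes, 17.6% were higher and 19.5% lower. The median log2 difference, exosomes minus cells, was -0.15 for hosts and -0.15 for all genes. The 482 hosts without a circle in exosomes had a median of -0.18, with 66 higher and 132 lower. The 205 hosts with one had a median of -0.02, with 44 higher and 50 lower. Such differences are relative to the other genes of a library and measure no amount of vesicles or of total RNA. Bulk libraries also cannot tell fewer vesicles carrying a host's RNA from less of it in each vesicle.

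**Figure D4:**
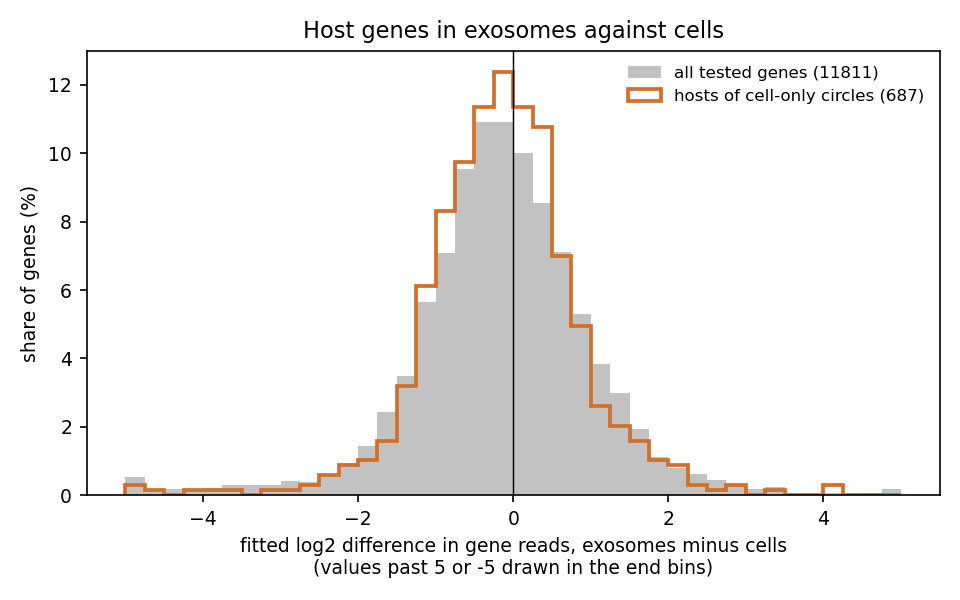
Share of genes (vertical axis, %) by fitted log2 difference in gene reads, exosomes minus cells (horizontal axis), for all 11811 tested genes in grey and the 687 hosts of circles absent from exosomes as the orange outline. Both are centred just below 0, at a median of -0.15.

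Among hosts of the 15 most abundant circles, CSNK1E was, like DST, higher in exosomes, with a log2 difference of 0.71 (SE 0.158, adjusted p = 0.00403 by edgeR). CLPB passed narrowly at 0.81 (adjusted p = 0.0454 by edgeR). It no longer passed without any single Con cell or Ang exosome library, or without Con exosomes replicate 1 or 2, with an adjusted p of up to 0.117. VMP1, an autophagy protein of the endoplasmic reticulum, was lower in exosomes by a log2 difference of -2.58 (SE 0.369, adjusted p = 0.000181 by edgeR), with 3 to 34 exosome reads. TULP4 was lower at -2.80, with 0 to 9. For ADAMTS6 (-0.04), ARHGAP10 (-0.22), TCF20 (0.52) and BACH1 (0.67) the difference did not pass. GUSBP1, MEG8, LINC00632 and ENSG00000230021 have no value in this comparison.

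Hosts of the circles with the smallest Ang against Con p went both ways as well. LASP1 (0.70) and ITSN2 (1.55, with 20 to 89 exosome gene reads per library) were higher in exosomes, and KIF20B (-0.59) was lower. CEP70 was higher at 1.61 (adjusted p = 0.0141 by edgeR) but did not pass without Ang exosomes replicate 3. FANCL was lower at -1.25 (adjusted p = 0.0455 by edgeR). It did not pass with the size factors of DESeq2's kind (adjusted p = 0.0521), nor without any single library other than Con exosomes replicate 1 or Ang exosomes replicate 1. PARD3 (0.26) and CRIM1 (-0.45) did not pass.

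The hosts furthest up were ANP32B, an acidic nuclear histone chaperone, at 17.8-fold, PLEKHA4 at 16.6-fold, SH3PXD2A at 10.9-fold, CLEC16A at 7.22-fold and ZEB1 at 6.82-fold. ANP32B had 4881 to 6031 gene reads in exosome libraries and 3667 to 6701 in the much deeper cell libraries, and its family has near-identical copies. ZEB1, a repressor of epithelial genes, had 367 to 623 exosome reads. SH3PXD2A varied from 10 to 325 in exosomes and from 48 to 867 in cells. Without Ang cells replicate 1, the library with 867, its log2 difference went from 3.45 to 4.92. The ZEB1 circle of the set had 4 reads, and no ZEB1 circle was listed in exosomes. Furthest down were BMPR2, ZDBF2, ZNF586, PUM2 and PRKD3, the first 3 with an exosome group at 0 in every library. ZDBF2 had 17, 0 and 12 reads in Con exosomes and 0, 0 and 0 in Ang exosomes. PUM2 varied from 122 to 1311 reads in cells and had 0 to 11 in exosomes. With single libraries left out, the log2 difference of PUM2 ran from -7.07 to -3.57. BMPR2, a receptor of bone morphogenetic proteins, had 20, 62 and 105 reads in Con exosomes and 0, 0 and 0 in Ang exosomes, against 1919 to 2334 in cells. Its Con exosomes were at 92.5 ± 64.5 CPM (SD, n = 3), against 198 ± 7.31 CPM (SD, n = 3) in Con cells. ZNF586 had 0, 0 and 0 reads in Con exosomes and 2, 2 and 5 in Ang exosomes. Its Ang exosomes were at 5.86 ± 3.60 CPM (SD, n = 3), against 7.18 ± 2.13 CPM (SD, n = 3) in Ang cells. PRKD3, a protein kinase D, had 0 to 8 exosome reads against 619 to 1095 in cells. In CPM this was 5.69 ± 5.72 (SD, n = 6) in exosomes and 83.4 ± 18.8 (SD, n = 6) in cells.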

How the data were processed

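The deposited values, per the file headers, were whole-number counts for each gene and for each back-splice junction in 12 libraries, made by the authors. The submitters' processing notes name GRCh38, HISAT2 and StringTie. The circRNA caller and the use of strand are not given in the sources used. Per the labels' protocols, cells went through miRNeasy Micro extraction and a VAHTS Universal library kit. Exosomes went through exoRNeasy Maxi extraction and a SMARTer Stranded library kit.

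Circles were matched to GENCODE release 29 by position, counted from 1. The tests used edgeR 4.0.16 (quasi-likelihood F test, robust, trimmed mean scaling; filterByExpr with a minimum count of 5 for circles and 10 for genes, total 15) in R 4.3.3, fitted over the whole table, with Benjamini-Hochberg adjustment. DESeq2 1.42.0 was the alternative. The script was tested on simulated data. Totals used exact two-sided permutation tests. Same-numbered libraries were not treated as pairs.

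Named circles were the 15 with the most reads, the 5 smallest p in each direction, up to 4 per gene list and the hosts with the most circles. Named hosts were those of the circles named by reads or by p, and up to 5 past the threshold in each direction. The members, lists and rules were chosen with earlier results of these data known. The planned search for circles with correlated counts was left out because the counts are sparse. Gene lists printed are those of host functions and of cell markers.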

Additional observations from a re-analysis of the deposited data

How the results depend on the processing

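The number of recurrent circles absent from exosomes fell with the number of cell libraries asked for, to 498 at 3 libraries, 266 at 4, 133 at 5 and 69 at 6. The Ang against Con count of called circles was 0 under every scaling and low-count filter run, and 0 to 1 when a library was left out (members 0 to 1). Without Con cells replicate 2 a circle of RBM33, which is listed in exosomes, was called. Without Con cells replicate 3 the MALAT1 circle at chr11:65500487-65500650 was called (adjusted p = 0.0391 by edgeR), with both remaining Con libraries at 0. The difference in the share of junction reads, 0.631 percentage points, ranged from -0.389 to 1.72 with a library left out and turned negative without Ang cells replicate 1. DESeq2 called 3 hosts between Ang and Con where edgeR called 0. The cause was not tested.

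No pairing by library number was seen: in cells, same-numbered circle deviations correlated at -0.0705, 0.123 and -0.00797. Between Con and Ang libraries of unlike numbers they ran from -0.113 to 0.126. Such sparse counts cannot exclude a culture or batch shared by same-numbered libraries, and the labels do not say. With a replicate block, 0 circles were called between Ang and Con, and 101 hosts were higher and 171 lower in exosomes. Under the block SH3PXD2A no longer passed (adjusted p = 0.0701 by edgeR). Leaving out single libraries gave 100 to 112 hosts higher and 150 to 187 lower. Exosome depth and the minimum listed count of 2 limit what an absence can show, and 3 libraries a group limit the tests.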

Other observations

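Genes known to help circles form, leave the nucleus or decay were themselves measured: 32 of 33 were in the cell tables. Between Ang and Con cells, 0 of 32 tested passed by edgeR's quasi-likelihood test and 3 were under an unadjusted p of 0.05, as were 6.12% of all genes. Between exosomes and cells, 4 were higher and 12 lower, with a median log2 difference of -0.39. Over all genes, 17.6% were higher and 19.5% lower, with a median of -0.15. QKI, a splicing regulator that promotes back-splicing in several settings, was at 237 to 264 CPM in the 6 cell libraries, and ADAR, an RNA-editing enzyme known to oppose it, at 331 to 389 CPM.

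Gene reads of the host lists were compared between compartments in the same way, against the same shares over all genes. Of 79 small GTPase regulator and kinase genes tested, 7 were higher and 40 lower in exosomes, with a median log2 difference of -0.63. Of 66 chromatin genes, 12 were higher and 19 lower (median -0.15), and of 73 RNA-binding and RNA-processing genes, 16 and 21 (median -0.12). Of 69 ubiquitin ligases and deubiquitinases, 4 were higher and 19 lower (median -0.30). Of 58 centrosome, cilium and kinetochore genes, 8 were higher and 17 lower (median -0.26). Of 57 membrane traffic and nuclear transport genes, 4 were higher and 21 lower (median -0.39). Of 11 cardiac muscle and ion channel genes, 0 were higher and 4 lower (median -0.19), and of 20 genes with circles named in heart or muscle studies, 1 and 11 (median -0.55).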
